A study of Mus musculus with 12 samples.

Results

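Liver RNA was compared between mice taken 6 h after CLP and mice taken 6 h after a sham operation. CLP stands in this field for cecal ligation and puncture, in which the cecum is tied off and pierced so that gut contents reach the abdomen, a widely used mouse model of sepsis. The comparison rests on 6 of the 12 libraries of the series, those labelled as liver: 3 after CLP and 3 after sham surgery. All mice, those of the control group included, were wild type (WT) on the C57BL/6J strain; age and sex are not used here. The members are all genes that passed a filter on low counts, 12392 of the 55414 gene identifiers counted. Whether the libraries of a group come from different mice is not stated in the labels. The p-values therefore cover only the variation among these libraries, which may be technical. In bulk tissue, fewer cells of a type and less RNA per cell cannot be told apart.

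The liver answers infection chiefly through its hepatocytes, which take up inflammatory signals such as interleukin-6 and interleukin-1 and switch their output of plasma proteins, the acute phase response. Hepatocytes also hold the metabolic work of the body: they store and make glucose, burn fatty acids, turn ammonia into urea and divide these tasks between the portal and the central side of each lobule. Around them lie sinusoidal endothelial cells, resident macrophages called Kupffer cells, stellate cells and bile duct cells.

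Total counts ran from 10559895 to 15854117 per liver library. Levels are given as CPM, counts scaled to a common library size, and 3 counts were worth between 0.189 and 0.284 CPM. Mitochondrially encoded transcripts took 4.16 to 4.71% of the counts. No pair of replicates agreed within sampling noise (chi-square per degree of freedom of 16.7 to 37.6), so each library was kept as a sample of its own. Library sizes were adjusted with TMM factors (trimmed mean of M values). Changes are given as log2 fold change, CLP minus sham, with the standard error (SE). A gene is called higher or lower where edgeR's quasi-likelihood test gave a Benjamini-Hochberg adjusted p below 0.05 over all genes tested.

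The response was broad and nearly even in direction. Of the 12392 genes tested, 42.3% were called: 2647 (21.4%) were higher and 2600 (21.0%) were lower after CLP. Changes of at least 2-fold were called for 1101 genes (8.88%) upward and 1219 (9.84%) downward, and of at least 4-fold for 454 genes (3.66%) upward and 305 genes (2.46%) downward. The CLP and sham libraries did not overlap in CPM for 55.7% of the genes tested. With scaling by library totals alone, 1690 genes were higher and 3793 lower, and the median change of all genes tested moved from -0.01 to -0.21 on the log2 scale. Upper-quartile scaling moved that median to -0.11, with 2122 genes higher and 3144 lower. The medians of the 56 gene lists moved by -0.21 to -0.18 with library totals alone, so a list median just above 0 can change sign.

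Long non-coding RNAs did not share this balance. Of 511 tested, 57 were higher and 194 lower, with a median log2 fold change of -0.58, whereas of 11720 protein-coding genes 2569 were higher and 2375 lower, with a median of 0.00. Most of these RNAs were scarce, and the split was less uneven among those with a mean of at least 5 CPM, where 26 of 112 were higher and 44 lower. Scarce protein-coding genes leaned down too. Below 5 CPM, 444 of 2866 protein-coding genes were higher and 671 lower, with a median of -0.19. The same range held 399 long non-coding RNAs, 31 higher and 150 lower, with a median of -0.68. The most abundant nuclear RNA in the list of RNA-processing genes that fell was Neat1, the scaffold of paraspeckles, at 245, 232 and 218 CPM in the CLP libraries and 806, 371 and 359 CPM in the sham libraries. Sham replicate 1 lay far above the other sham libraries for Neat1. Its fall (-1.14 ± 0.31, edgeR, Benjamini-Hochberg adjusted p = 0.0213) was not called without CLP replicate 1, 2 or 3 (adjusted p = 0.0617 to 0.0703).

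**Figure D1:**
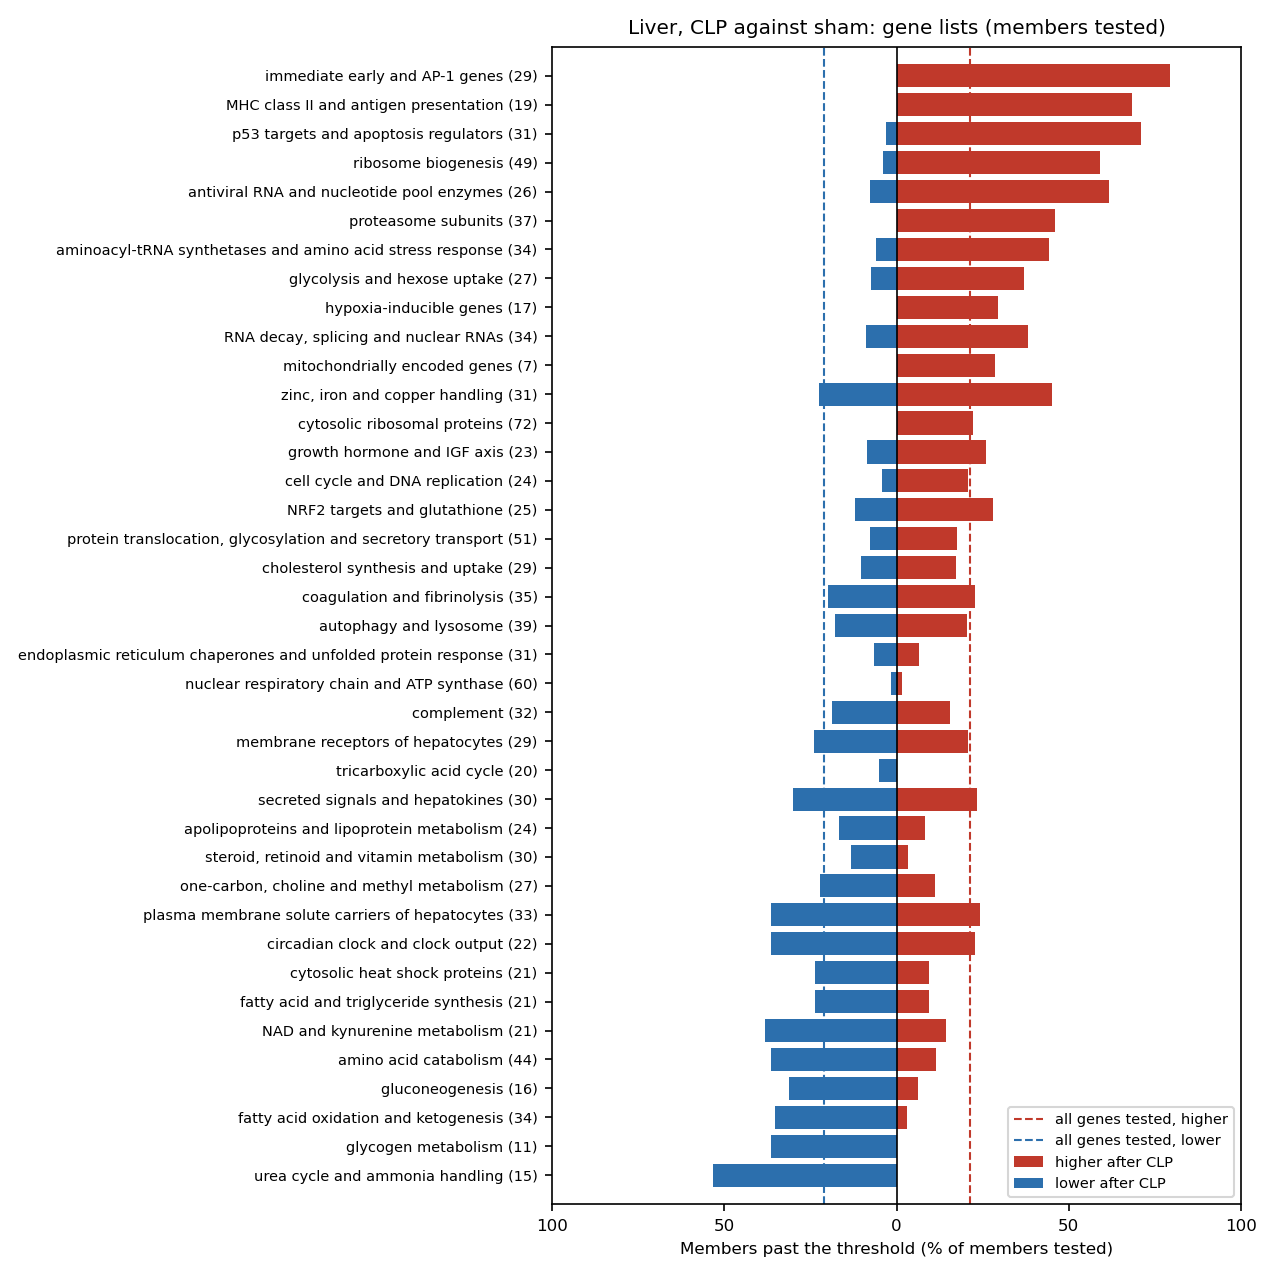
Share of the tested members of each of the 39 pathway lists that were called higher (right) or lower (left) after CLP, in percent, with the number of members tested in brackets; dashed lines mark the shares over all genes tested, 21.4% and 21.0%. Immediate early genes lie at the top, with 23 of 29 members higher, and urea cycle genes at the bottom, with 8 of 15 members lower.

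Promoter sequence was set beside these changes for the genes whose start is in the RefSeq promoter table of mouse build GRCm38.p6, which covers 250 bases before to 50 bases after the start. It held 12290 promoters of 9600 of the genes tested, since a gene can have several starts; 424 of these promoters belong to genes at least 4-fold higher and 299 to genes at least 4-fold lower. Short motifs of inflammatory and clock factors were searched on both strands, and a match is a description of letters only. Interferon-stimulated response elements, here GAAA, any 2 bases and GAAA again, stood in 11.3% of the promoters of the strongly higher genes, in 2.01% of those of the strongly lower genes and in 3.22% of all those tested. The kappaB motif, here GGGA, any base and TTTCC, stood in 2.83%, 0.334% and 0.464% of them, and the AP-1 motif TGANTCA in 14.9%, 5.02% and 5.37%. The STAT-type motif TTCNNNGAA was found in 12.03%, 7.36% and 6.998%. The CRE motif TGACGTCA stood in 1.42%, 1.67% and 2.87%, and for the E-box CACGTG the shares were 9.20%, 8.03% and 9.86%. The D-box TTATGTAA, to which the clock output factors Dbp, Tef, Hlf and Nfil3 bind, stood in 1.42%, 1.00% and 0.618%, and the RORE motif NTAGGTCA, read by Rev-erb and Ror receptors, in 2.83%, 2.01% and 2.06%. The antioxidant response element TGACNNNGC stood in 16.0%, 17.4% and 14.2%. No motif searched contains another, though matches can share bases, and a promoter was counted once per motif. Some shares rest on few promoters of the strongly higher and strongly lower genes. These were 12 and 1 for kappaB, 6 and 5 for CRE, 6 and 3 for the D-box and 12 and 6 for RORE.

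Promoters are shown here for 5 genes that the results turn on, with the matched motif in capitals: an interferon target, a feedback inhibitor of cytokine signals, the gene that gained most reads, and a fallen and a risen clock gene. Each is written 5′ to 3′ on the strand of its gene, from GRCm38.p6. Gene and motif were paired by hand, and the first listed promoter of the gene that held the motif was taken. The presence of a match was therefore fixed in advance and is no result.
Ifit1, chr19:34640639-34640938, plus strand, response element on the opposite strand, 2 matches: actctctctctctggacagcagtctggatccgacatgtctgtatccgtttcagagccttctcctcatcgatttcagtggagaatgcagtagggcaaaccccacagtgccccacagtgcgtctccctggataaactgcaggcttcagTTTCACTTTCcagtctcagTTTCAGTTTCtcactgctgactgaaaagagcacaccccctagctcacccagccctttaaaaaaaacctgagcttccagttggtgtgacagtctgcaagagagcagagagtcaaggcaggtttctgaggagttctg
Socs1, chr16:10785487-10785786, minus strand, response element, 2 overlapping matches: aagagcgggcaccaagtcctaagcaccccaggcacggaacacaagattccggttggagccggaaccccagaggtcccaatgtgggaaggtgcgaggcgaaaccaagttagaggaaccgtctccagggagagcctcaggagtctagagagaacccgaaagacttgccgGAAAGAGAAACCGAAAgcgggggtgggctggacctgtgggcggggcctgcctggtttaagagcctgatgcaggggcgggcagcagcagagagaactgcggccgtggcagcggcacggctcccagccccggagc
Steap4, chr5:7960222-7960521, plus strand, TTCNNNGAA: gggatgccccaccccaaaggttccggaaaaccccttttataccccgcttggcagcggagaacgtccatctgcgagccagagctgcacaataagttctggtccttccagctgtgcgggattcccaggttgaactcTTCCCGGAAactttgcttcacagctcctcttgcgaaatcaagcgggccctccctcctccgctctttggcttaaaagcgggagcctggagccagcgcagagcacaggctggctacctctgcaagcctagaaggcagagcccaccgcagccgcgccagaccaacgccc
Per3, chr4:151044616-151044915, minus strand, TTATGTAA, 2 matches: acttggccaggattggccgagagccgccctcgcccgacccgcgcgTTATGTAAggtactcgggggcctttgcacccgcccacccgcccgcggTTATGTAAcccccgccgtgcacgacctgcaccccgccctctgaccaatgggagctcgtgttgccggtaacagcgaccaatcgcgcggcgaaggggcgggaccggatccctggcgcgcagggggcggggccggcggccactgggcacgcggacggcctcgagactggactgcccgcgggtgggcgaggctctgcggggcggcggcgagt
Nfil3, chr13:52980990-52981289, minus strand, NTAGGTCA on the opposite strand: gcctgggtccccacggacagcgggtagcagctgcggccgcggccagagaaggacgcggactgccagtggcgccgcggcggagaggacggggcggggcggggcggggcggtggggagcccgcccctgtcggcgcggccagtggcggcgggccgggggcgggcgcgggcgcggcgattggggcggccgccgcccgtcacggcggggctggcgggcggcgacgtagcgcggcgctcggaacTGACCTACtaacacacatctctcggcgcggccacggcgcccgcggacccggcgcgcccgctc

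The 8 rises with the lowest p-values included several regulators of signalling beside the protease inhibitor Serpina3f. Socs1, which blocks signalling by JAK kinases, stood at 43.0, 33.6 and 33.2 CPM in the CLP libraries and 0.872, 0.888 and 0.777 CPM in the sham libraries. All 3 CLP libraries lay far above all 3 sham libraries, a log2 fold change of 5.43 ± 0.18 (edgeR, Benjamini-Hochberg adjusted p = 4.53e-06). The same held for Arid5a, an RNA-binding protein that stabilises inflammatory mRNAs (3.25 ± 0.13), Slfn4, a myeloid Schlafen gene (4.95 ± 0.18), Selp, the adhesion molecule P-selectin (4.77 ± 0.20), Apaf1, the core of the apoptosome (3.25 ± 0.14), Tiparp, a mono-ADP-ribosyltransferase that restrains the aryl hydrocarbon receptor (3.66 ± 0.16), and the small GTPase Rnd1 (3.79 ± 0.17). Tiparp was almost equal in the CLP libraries, at 167, 175 and 174 CPM, against 10.5, 15.9 and 14.4 CPM after sham surgery.

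On the falling side the lowest p belonged to Tmem25, a membrane protein of the immunoglobulin superfamily, at 0.999, 1.04 and 1.23 CPM in the CLP libraries and 25.4, 23.7 and 26.3 CPM in the sham libraries. Slc16a5, a member of the monocarboxylate transporter family, fell from 26.0 ± 1.18 to 1.06 ± 0.539 CPM (SD, n = 3 each), and Paqr7, a membrane progestin receptor, from 22.3 ± 3.62 to 1.14 ± 0.393 CPM. Miga2, which promotes mitochondrial fusion, fell by 2.64 and Abhd15, an adipose and liver gene linked to insulin action, by 2.42 on the log2 scale. The other 3 of the 8 lowest p-values were those of Hhex, Hykk and Cd163, described below. Tmem25, Slc16a5, Paqr7, Miga2 and Abhd15 were under 10 CPM in all 3 CLP libraries, and their groups did not overlap (edgeR, Benjamini-Hochberg adjusted p at most 1.96e-05).

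Among genes with a mean of at least 5 on the log2 CPM scale, the largest rise was that of Serpina3f, a serine protease inhibitor. It stood at 383, 352 and 299 CPM in the CLP libraries and 4.36, 2.15 and 3.71 CPM in the sham libraries, a log2 fold change of 6.65 ± 0.26 (edgeR, Benjamini-Hochberg adjusted p = 7.01e-06). Akap12, a scaffold protein that anchors protein kinase A, was at 234, 158 and 108 CPM in the CLP libraries and 2.40, 2.89 and 3.77 CPM in the sham libraries. Slc10a6, an uptake carrier for sulfated steroids, rose from 1.88 ± 1.26 to 71.7 ± 20.3 CPM (SD, n = 3 each), and its value moved from 5.28 to 5.95 without sham replicate 2. Another 6 of the 10 largest rises were those of inflammatory genes: the lipopolysaccharide receptor Cd14 (6.20 ± 0.37), the interleukin-1 antagonist Il1rn (5.74 ± 0.45), the chemokine Cxcl9 (5.72 ± 0.32), the survival gene Ier3 (5.35 ± 0.36), the NF-kB inhibitor Tnfaip3 (5.17 ± 0.50) and the GTPase Gbp2 (5.13 ± 0.27). Tnfaip3 moved to 4.58 without CLP replicate 1, its highest library.

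The largest fall at that abundance was that of Hhex. Hhex, a homeobox factor needed for liver development, stood at 2.46, 2.48 and 1.54 CPM in the CLP libraries and 63.9, 69.4 and 50.2 CPM in the sham libraries. All CLP libraries lay far below all sham libraries, a log2 fold change of -4.79 ± 0.20 (edgeR, Benjamini-Hochberg adjusted p = 7.01e-06). Nr1i3, the xenobiotic receptor CAR, stood at 8.38, 7.21 and 15.2 CPM in the CLP libraries and 85.6, 101 and 173 CPM in the sham libraries. Sham replicate 3 was the highest for Nr1i3, and all CLP libraries lay below all sham libraries (-3.56 ± 0.39, adjusted p = 0.000672 by edgeR with Benjamini-Hochberg adjustment). Hykk, which phosphorylates hydroxylysine, fell by 2.84 and Fam214a by 2.79 on the log2 scale.

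Slc40a1, the iron exporter ferroportin, was at 10.4, 19.6 and 13.4 CPM in the CLP libraries and 95.9, 73.1 and 88.5 CPM in the sham libraries, with no overlap. Cpox, an enzyme of heme synthesis, was at 27.7, 27.3 and 39.7 CPM in the CLP libraries and 112, 209 and 192 CPM in the sham libraries, and Inhbe, which encodes the activin E chain secreted by hepatocytes, at 36.8, 14.99 and 42.5 CPM in the CLP libraries and 108, 226 and 175 CPM in the sham libraries. Stard5, a sterol-binding protein, fell by 2.37 on the log2 scale. The remaining 2 of these 10 were the pseudogene Cyp2d37-ps (-2.95 ± 0.44), which is uncertain because near-identical Cyp2d genes could share its reads, and ENSMUSG00000118516, which has no symbol in the tables used (-2.70 ± 0.32). All 10 falls had an edgeR, Benjamini-Hochberg adjusted p of at most 0.00568.

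The changes were also ranked by reads gained or lost. CPM are not divided by transcript length, so this ranking says which genes took up reads, not which had most molecules. The called genes with a higher mean gained 155731 CPM in sum, and the 10 largest gains held 34.2% of it. Called genes with a lower mean dropped by 56596 CPM in sum, of which the 10 largest losses held 21.5%. These CPM carry the TMM factors, so gains and losses need not balance, and the excess of gain is no measure of a net rise. With library totals alone the median log2 fold change of all genes tested was -0.21 in place of -0.01. The largest gain was that of Steap4, a metalloreductase of iron and copper, at 11520.2, 10899.8 and 9968 CPM in the CLP libraries and 1745, 1902 and 919.7 CPM in the sham libraries. Every CLP library lay far above every sham library, and the log2 fold change was 2.83 ± 0.27 (edgeR, Benjamini-Hochberg adjusted p = 0.000199).

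Other gains came from transcripts that were already plentiful. The iron carrier Trf rose by a log2 fold change of 0.77 ± 0.14, the fibrinogen chains Fgg and Fgb by 0.52 and 0.42, the heme scavenger Hpx by 0.53 and the protease inhibitor Serpina3n by 0.64. Fgb was not called without CLP replicate 1 or 2 or sham replicate 1 or 3 (edgeR, Benjamini-Hochberg adjusted p = 0.0598 to 0.0880), nor Hpx without CLP replicate 1 or 2 or sham replicate 3 (0.0572 to 0.0796). Scaled by library totals alone, Fgb was at 0.23 and Hpx at 0.34, and neither was called (same test, 0.123 and 0.0901). Neither was called with upper-quartile scaling (0.0618 and 0.0540). In the fit of all 12 libraries Fgb, Hpx and Fgg were not called (0.609, 0.442 and 0.445). Larger in proportion were Tat, the first enzyme of tyrosine breakdown (1.56 ± 0.22), the copper protein Cp (1.43 ± 0.17), the siderophore binder Lcn2 (1.89 ± 0.31) and the acute phase gene Saa3 (4.52 ± 0.89). Saa3 stood at 2293, 4372 and 2338 CPM in the CLP libraries and 169, 203 and 19.5 CPM in the sham libraries, and sham replicate 3 lay far below the other sham libraries.

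The losses were spread over metabolic enzymes. Cyp2e1, which oxidises ethanol and small solvents, stood at 2939.6, 2516 and 3964 CPM in the CLP libraries and 4539, 6045 and 5830.3 CPM in the sham libraries. The urea cycle entry enzyme Cps1 fell by 0.62, the gluconeogenic enzyme Pck1 by 0.93, the tyrosine enzyme Hpd by 0.87, the fatty acid carrier Slc27a2 by 0.86, the retinol carrier Rbp4 by 0.54 and the acetyltransferase Nat8f2 by 0.70 on the log2 scale. Apoa4, an apolipoprotein (-1.20 ± 0.39), was also among the 10 largest losses. It was not called without CLP replicate 3 or any sham library (edgeR, Benjamini-Hochberg adjusted p = 0.0679 to 0.119).

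**Figure D2:**
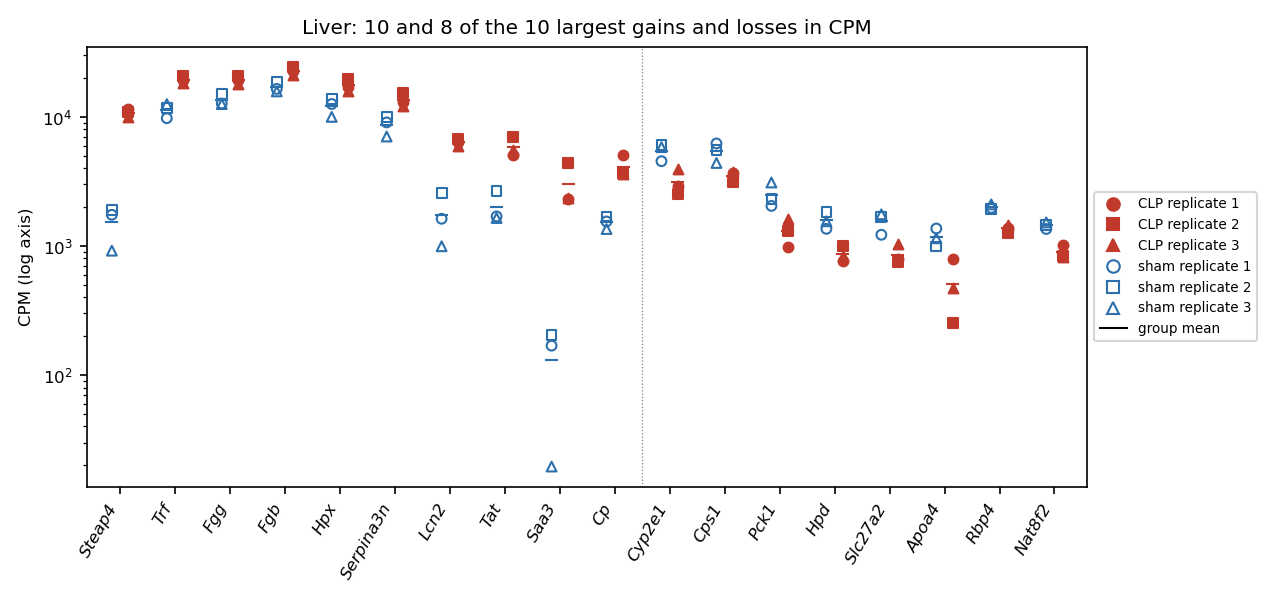
CPM (log axis) of the 10 genes with the largest gain and 8 of the 10 with the largest loss in mean CPM among called genes, in each CLP (filled) and sham (open) library, with bars for the group means. Steap4 went from a sham mean of 1522 to a CLP mean of 10796 CPM, while the losses were smaller in proportion.

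The circadian clock runs in hepatocytes as a loop in which Clock or Npas2 with Arntl switch on the Per, Cry and Rev-erb genes, whose products then act back on it, and the output factors Dbp, Tef and Hlf carry the rhythm to metabolic genes. All 22 listed clock genes were tested: 5 (22.7%) were higher and 8 (36.4%) lower, and the median log2 fold change was -0.39. Over all genes tested 21.4% were higher and 21.0% lower, so the share of clock genes higher was near that of all genes. With library totals alone 3 were higher. The rises included those of Npas2, Nfil3, Bhlhe41 and Csnk1d. On the activating arm, Npas2 was at 4.99, 2.16 and 1.54 CPM in the CLP libraries and 0, 0 and 0.120 CPM in the sham libraries. It had 107 counts over the CLP libraries and 2 over the sham libraries, a ratio of 66.8 with a 95% exact interval of 18.0 to 559, which covers counting error only. The fitted log2 fold change of 5.76 was 5.11 without CLP replicate 1, and without sham replicate 3, which held both sham counts, the sham libraries were at 0. Arntl was at 18.4, 9.14 and 4.51 CPM in the CLP libraries and 3.56, 4.96 and 1.79 CPM in the sham libraries; the groups overlapped, and its change (1.67 ± 0.57) was not called (edgeR, Benjamini-Hochberg adjusted p = 0.0521). Arntl was called by DESeq2 (adjusted p = 0.00274) and, by edgeR, without CLP replicate 3 (2.03, 0.015), and its value was 1.03 without CLP replicate 1. Clock itself was not called (-0.42 ± 0.16, adjusted p = 0.0611 by edgeR with Benjamini-Hochberg adjustment), but was lower without sham replicate 1 (-0.52, adjusted p = 0.0491) and with library totals alone (0.00884).

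Several repressing and output genes fell. Per3 stood at 0.999, 1.52 and 2.26 CPM in the CLP libraries and 21.8, 11.8 and 31.9 CPM in the sham libraries, Per2 at 4.61, 5.37 and 14.97 CPM in the CLP libraries and 31.7, 31.2 and 38.1 CPM in the sham libraries, and neither overlapped. Without CLP replicate 3, its highest CLP library, the change of Per2 went from -2.05 to -2.75. Per1, in contrast, was at 48.3, 87.8 and 65.3 CPM in the CLP libraries and 51.1, 65.1 and 71.4 CPM in the sham libraries, and its groups overlapped (0.10 ± 0.22, edgeR, Benjamini-Hochberg adjusted p = 0.74). Of the output factors, Dbp was at 2.31, 6.49 and 7.999 CPM in the CLP libraries and 58.0, 33.4 and 67.6 CPM in the sham libraries. Hlf (-1.92 ± 0.18) and Tef (-1.41 ± 0.25) also fell, and so did Nr1d1, the Rev-erb alpha receptor (-0.59 ± 0.12). These falls had an edgeR, Benjamini-Hochberg adjusted p of at most 0.00855.

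Nfil3, which represses at the D-box that Dbp activates, was at 91.5, 84.8 and 65.4 CPM in the CLP libraries and 26.5, 33.3 and 24.6 CPM in the sham libraries, the reverse order of Dbp. Bhlhe41, a repressor of Clock and Arntl, rose from 4.76 ± 0.366 to 17.0 ± 1.64 CPM (SD, n = 3 each). The calls of Rora and Csnk1d were weak. Rora (-0.35) was lost without CLP replicate 3 or any sham library (edgeR, Benjamini-Hochberg adjusted p = 0.0504 to 0.108), and Csnk1d (0.32) without CLP replicate 1 or sham replicate 2 or 3 (0.0912 to 0.0990). By the same test Csnk1d was also not called with library totals alone (0.12, adjusted p = 0.437) or upper-quartile scaling (0.23, adjusted p = 0.114).

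**Figure D3:**
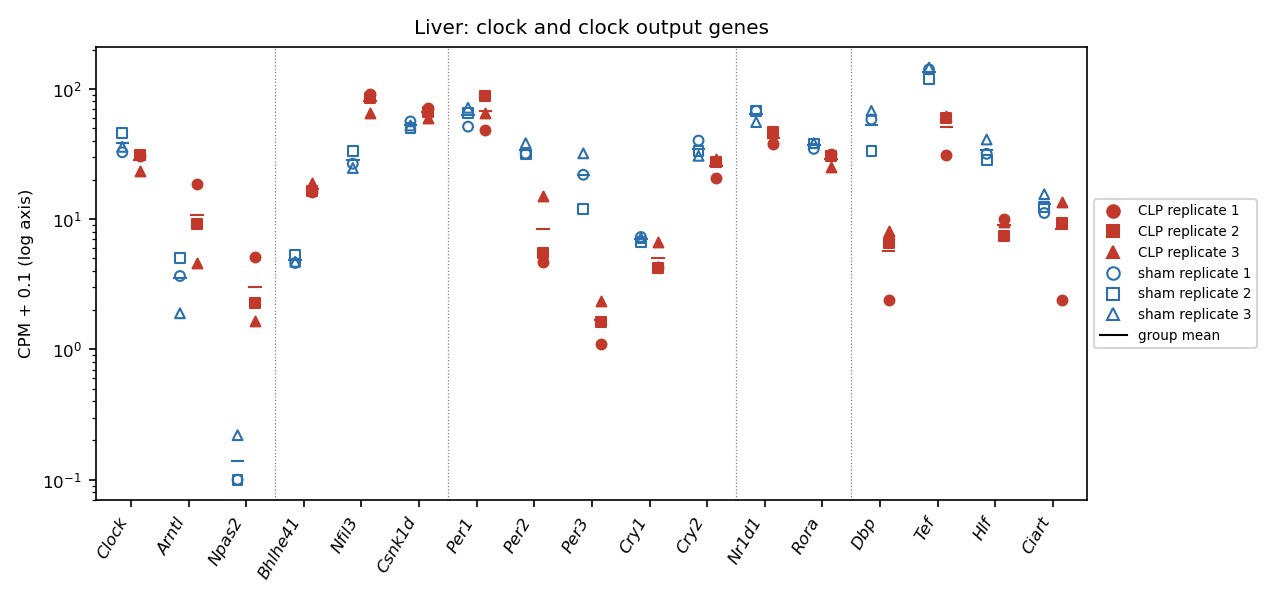
CPM + 0.1 (log axis) of 17 of the 22 clock genes in each CLP (filled) and sham (open) library, with bars for the group means; dotted lines part the activators, the repressors and regulators that rose, the Per and Cry genes, the nuclear receptors and the output genes. Npas2 was at 0 in 2 sham libraries, and Per3 and Dbp show the widest gaps downward.

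Glucose production and glucose use were covered by separate lists. Of 16 gluconeogenesis genes, 5 (31.25%) were lower and 1 (6.25%) higher, with a median of -0.41. Over all genes tested 21.0% were lower and 21.4% higher. The lower ones were Pck1, the glucagon receptor gene Gcgr (-0.97 ± 0.16), the fasting factor Creb3l3 (-0.79 ± 0.19), the glucose-6-phosphate transporter Slc37a4 (-0.96) and the coactivator Ppargc1a (-0.94). Only 3 were lower without CLP replicate 1, sham replicate 2 or sham replicate 3. Slc37a4 and Ppargc1a were among the calls lost, Slc37a4 without any library except CLP replicate 3 and Ppargc1a without any except CLP replicate 2 (edgeR, Benjamini-Hochberg adjusted p = 0.0511 to 0.0965 for both). G6pc, whose product releases free glucose, stood at 94.0, 8.09 and 60.6 CPM in the CLP libraries and 142, 295 and 621 CPM in the sham libraries. All CLP libraries lay below all sham libraries, but the spread within groups was wide and the difference (-2.70 ± 0.92) was not called (adjusted p = 0.0566 by edgeR with Benjamini-Hochberg adjustment). It was -3.36 without CLP replicate 1 and -2.01 without sham replicate 3, and it was called by DESeq2 (adjusted p = 0.0236) and by edgeR without sham replicate 1 (0.0477). Fbp1, a fructose bisphosphatase of the same pathway, was higher (0.47 ± 0.12), but not with library totals alone (0.28).

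Of 27 genes of glycolysis and hexose uptake, 10 (37.0%) were higher and 2 (7.41%) lower, with a median of 0.58. Over all genes tested 21.4% were higher and 21.0% lower. Pfkfb3, which makes the strongest activator of glycolysis, stood at 593, 351 and 416 CPM in the CLP libraries and 26.1, 19.9 and 35.0 CPM in the sham libraries. Its sister Pfkfb1, the form of resting liver, moved the opposite way, at 13.2, 11.8 and 18.4 CPM in the CLP libraries and 46.0, 46.0 and 43.9 CPM in the sham libraries. The lactate exporter Slc16a3 (3.59 ± 0.35), hexokinases Hk2 (1.95 ± 0.26) and Hk3 (2.06 ± 0.19), Pkm (1.97 ± 0.26) and Pfkp (1.99 ± 0.26) were higher but stayed below 50 CPM in every library. Pfkm, the muscle form of phosphofructokinase, was the other lower member (-0.72 ± 0.19). Hk3 is a gene of myeloid cells as well, and markers of neutrophils were also higher, as given further on; their part in this result was not tested. In glycogen metabolism 4 of 11 genes (36.4%) were lower and none higher, beside the same shares over all genes tested. The lower genes included Ppp1r3c, which brings phosphatase to glycogen (-2.05 ± 0.32), the kinase subunit Phka2 (-1.07 ± 0.22) and liver glycogen synthase Gys2 (-0.90). Gys2 was not called without CLP replicate 1 or 2 or sham replicate 1 or 3 (edgeR, Benjamini-Hochberg adjusted p = 0.0522 to 0.0943).

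In lipid metabolism the oxidation list leaned down. Of 34 genes of fatty acid oxidation and ketogenesis, 12 (35.3%) were lower and 1 (2.94%) higher, with a median of -0.45. Over all genes tested 21.0% were lower and 21.4% higher. Ppara, the receptor that drives these genes, was at 37.4, 67.7 and 50.9 CPM in the CLP libraries and 112, 121 and 142 CPM in the sham libraries. The carnitine shuttle fell at 3 steps, Cpt1a (-0.73 ± 0.15), Slc25a20 (-0.98 ± 0.18) and Cpt2 (-0.63 ± 0.16), with an edgeR, Benjamini-Hochberg adjusted p of at most 0.0152. Pdk4, which holds back pyruvate oxidation, was the member that rose (1.93 ± 0.34). The count of lower members was 7 without CLP replicate 2, 6 without sham replicate 2, 6 without sham replicate 3, and 24 with library totals alone.

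Of 21 genes of fatty acid and triglyceride synthesis, 5 (23.8%) were lower and 2 (9.52%) higher, beside 21.0% and 21.4% of all genes tested. Lpin2, a phosphatidate phosphatase, was at 66.5, 47.0 and 101 CPM in the CLP libraries and 227, 287 and 245 CPM in the sham libraries; the desaturase Fads2 (-0.998 ± 0.22) was also lower. The other lower members, by edgeR with Benjamini-Hochberg adjustment, were Acacb (-1.16, not called without CLP replicate 1 or sham replicate 1, 2 or 3, adjusted p = 0.0623 to 0.0811), Gpam (-0.83, not called without CLP replicate 1 or 2 or sham replicate 2 or 3, adjusted p = 0.0506 to 0.0631) and Fads1 (-0.46, not called without CLP replicate 1 or sham replicate 3, adjusted p = 0.0543 to 0.0609). The count of lower members was 3 without CLP replicate 1 and 2 without sham replicate 3. Higher were Thrsp, a promoter of lipogenesis, at 464, 427 and 534 CPM in the CLP libraries and 85.7, 165 and 194 CPM in the sham libraries, and Dgat2, which closes triglyceride synthesis (0.85 ± 0.12). In cholesterol metabolism Abca1, the cholesterol efflux pump, was at 1311, 1466 and 1154 CPM in the CLP libraries and 308, 456 and 293 CPM in the sham libraries. Soat2 (1.03 ± 0.11) and Insig1 (0.86 ± 0.17) were also higher, and 21 of the 29 genes in that list were not called. Among weaker calls by edgeR with Benjamini-Hochberg adjustment was that of Fdps (0.54, not called without CLP replicate 1 or 3 or sham replicate 1 or 3, adjusted p = 0.125 to 0.137) upward. Downward they were those of Insig2 (-0.85, not called without CLP replicate 1, 2 or 3 or sham replicate 1 or 2, adjusted p = 0.0535 to 0.129) and Sc5d (-0.53, not called without CLP replicate 1 or 2 or sham replicate 3, adjusted p = 0.0596 to 0.0859). The list median of 0.15 turned to -0.05 with library totals alone. Among apolipoproteins and lipoprotein enzymes, the high-density lipoprotein receptor Scarb1 (0.99 ± 0.11) and Lpl (1.20 ± 0.19) were the 2 of 24 called higher. Apoa4, the lipase inhibitor Angptl8 (-2.05 ± 0.37), Apoc4 (-0.36, not called without CLP replicate 1, 2 or 3 or sham replicate 2 or 3, adjusted p = 0.0758 to 0.129 by edgeR with Benjamini-Hochberg adjustment) and Apoc2 were the 4 called lower; the counts of Apoc2 and Apoc4 are uncertain, because another annotated gene overlaps both. The abundant Apoa1 and Apoe were at 6384 ± 725 and 9889 ± 114 CPM after CLP against 7063 ± 385 and 10268 ± 154 CPM after sham surgery, and neither was called; Apoa1 was lower with library totals alone (-0.34, edgeR, Benjamini-Hochberg adjusted p = 0.0375).

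Several nitrogen disposal genes fell. Of 15 urea cycle and ammonia genes, 8 were lower and none higher, with a median of -0.45. The lyase Asl stood at 377, 481 and 485 CPM in the CLP libraries and 896, 987 and 811 CPM in the sham libraries. Beside it and Cps1 stood the ornithine and aspartate carriers Slc25a15 (-0.81 ± 0.19) and Slc25a13 (-0.76 ± 0.18), the mitochondrial carbonic anhydrase Car5a (-1.42 ± 0.28) and the glutamine carrier Slc38a3 (-0.57 ± 0.13), with an edgeR, Benjamini-Hochberg adjusted p of at most 0.0103. The calls of Gls2 (-0.51) and Arg1 (-0.44) were the weakest. Gls2 was lost without any library except CLP replicate 2 or sham replicate 3, and Arg1 without any except CLP replicate 2 (adjusted p = 0.0518 to 0.158 by edgeR with Benjamini-Hochberg adjustment). Ass1 overlapped between groups (-0.27 ± 0.18, not called).

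Of 44 genes of amino acid catabolism, 16 (36.4%) were lower and 5 (11.4%) higher, beside 21.0% and 21.4% of all genes tested. Hal, the first enzyme of histidine breakdown, was at 98.0, 127 and 113 CPM in the CLP libraries and 292, 306 and 252 CPM in the sham libraries, and Prodh, which oxidises proline, at 56.9, 49.8 and 73.3 CPM in the CLP libraries and 144, 147 and 123 CPM in the sham libraries. Both sets of libraries stood clear of each other, as they did for the branched-chain transaminase Bcat2 (-1.83 ± 0.32) and the betaine enzyme Bhmt2 (-1.27 ± 0.26). Tat and Sds (0.93 ± 0.22), both classic glucocorticoid-responsive enzymes, rose. Sdsl (0.95, not called without CLP replicate 1 or 2 or sham replicate 2 or 3, adjusted p = 0.0763 to 0.135), Gldc (0.54, not called without CLP replicate 1 or 3 or sham replicate 1 or 3, adjusted p = 0.0605 to 0.0774) and Cdo1 (0.63, not called without CLP replicate 2 or 3 or sham replicate 2 or 3, adjusted p = 0.0582 to 0.0659) also rose by edgeR with Benjamini-Hochberg adjustment. The count of lower members was 10 without CLP replicate 1, 9 without sham replicate 2, 10 without sham replicate 3 and 26 with library totals alone.

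Of 21 genes of NAD and kynurenine metabolism, 3 (14.3%) were higher and 8 (38.1%) lower, beside 21.4% and 21.0% of all genes tested. Nampt, the pacemaker of NAD salvage, was at 255, 701 and 550.2 CPM in the CLP libraries and 66.5, 51.6 and 57.8 CPM in the sham libraries, the highest in CLP replicate 2. Parp14, a mono-ADP-ribosyltransferase of interferon responses, was lowest in that library, at 296, 143 and 326 CPM in the CLP libraries and 55.9, 45.7 and 64.0 CPM in the sham libraries. Cd38, an NAD-consuming enzyme, was the remaining higher member (0.70, not called without CLP replicate 2 or 3 or sham replicate 1 or 3, adjusted p = 0.0622 to 0.110 by edgeR with Benjamini-Hochberg adjustment). The routes that build NAD from other precursors were among the lower ones: Nadsyn1 (-0.71 ± 0.13), Kmo (-0.61 ± 0.15) and Ido2 (-1.39 ± 0.24), while Tdo2, the main tryptophan enzyme of liver, overlapped between groups (-0.31 ± 0.23, not called). The count of lower members was 5 without CLP replicate 1, CLP replicate 2 or sham replicate 2, and 3 without sham replicate 3.

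Nuclear genes of the respiratory chain stayed near the middle of all genes. Of 60 nuclear genes of the respiratory chain and ATP synthase, Atp5l was higher and Ndufa6 lower and 58 were not called, with a median of 0.02 (-0.18 with library totals alone). With library totals alone 9 were called lower and none higher. Both calls depended on which libraries were in the fit, by edgeR with Benjamini-Hochberg adjustment: Atp5l (0.57, not called without CLP replicate 1 or 2 or sham replicate 1, 2 or 3, adjusted p = 0.0506 to 0.110) and Ndufa6 (-0.31, not called without CLP replicate 1, 2 or 3 or sham replicate 1, 2 or 3, adjusted p = 0.0544 to 0.170). The TMM-scaled list sum of the mitochondrially encoded genes was 35697 to 42446 CPM in the sham libraries and 46927 to 50301 CPM in the CLP libraries, with no overlap. As a share of unscaled counts the groups did overlap. Mitochondrial transcripts took 4.69, 4.45 and 4.71% in the CLP libraries and 4.16, 4.25 and 4.55% in the sham libraries. All 7 tested had a log2 fold change above 0, with a median of 0.24 (0.05 with library totals alone, where mt-Co1 was below 0). Among them mt-Nd5 (0.55 ± 0.12) and mt-Nd1 (0.40 ± 0.13) were higher; mt-Nd1 was lost in every fit without 1 library except that without CLP replicate 2 (adjusted p = 0.0562 to 0.109 by edgeR with Benjamini-Hochberg adjustment). The 2 most abundant, mt-Co1 (0.16 ± 0.12) and mt-Cytb (0.34 ± 0.15), were not called.

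Genes for making ribosomes leaned upward. Ribosome biogenesis takes place in the nucleolus, where ribosomal RNA is cut, modified and packed. Of 49 genes of this list 29 were higher and 2 lower, with a median of 0.36 that stayed positive with library totals alone (0.17); the count was then 13, and it was 19 without sham replicate 3. Nop58, a core protein of the box C/D particles that modify ribosomal RNA, was at 116, 104 and 126 CPM in the CLP libraries and 44.7, 49.4 and 42.7 CPM in the sham libraries. Gnl2 (1.03 ± 0.10), Mybbp1a (0.95 ± 0.10) and the helicase Ddx21 (0.92 ± 0.10) were also higher, with an edgeR, Benjamini-Hochberg adjusted p of at most 0.00023. Myc, which drives this program in growing cells, rose from 3.05 ± 0.321 to 12.2 ± 2.44 CPM (SD, n = 3 each). Polr1a, the largest subunit of the polymerase for ribosomal RNA, was lower (-0.41 ± 0.09), as was Wdr12 (-0.41, not called without CLP replicate 2 or 3 or sham replicate 1, 2 or 3, adjusted p = 0.0871 to 0.116 by edgeR with Benjamini-Hochberg adjustment).

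Of 72 ribosomal protein genes 16 were higher and none lower. This share, with a median of 0.25, was near that of all genes tested, and 1 was higher with library totals alone, where the median was 0.05. Leaving out 1 library gave 5 without CLP replicate 1 or sham replicate 1, 10 without sham replicate 2 and 4 without sham replicate 3. Rpl10 (0.67 ± 0.11) and Rps9 (0.47 ± 0.10) had the lowest p.

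Among tRNA synthetases and genes of the amino acid stress response, 15 of 34 were higher and 2 lower. The cystine carrier Slc7a11 was at 10.4, 7.37 and 2.36 CPM in the CLP libraries and 0.145, 0.148 and 0 CPM in the sham libraries. It had 250 counts over the CLP libraries and 4 over the sham libraries, a ratio of 78.0 with a 95% exact interval of 30.1 to 289; the fitted log2 fold change of 6.08 was 5.44 without sham replicate 3. The sham libraries were at or near 0, and the CLP libraries lay above all of them. Ddit4, an inhibitor of the growth kinase mTORC1, was at 49.0, 159 and 106 CPM in the CLP libraries and 9.59, 11.5 and 16.6 CPM in the sham libraries. The tyrosyl and valyl synthetases Yars (0.91 ± 0.11) and Vars (0.91 ± 0.11) had the lowest p among the higher members, while the most abundant synthetases, Aars (-0.01 ± 0.10) and Eprs (0.16 ± 0.11), were not called. Atf4, the factor that runs this response, rose by 0.78 and the tryptophanyl-tRNA synthetase Wars, an interferon-induced gene as well, by 0.99 on the log2 scale. Atf5 (-0.83 ± 0.14) and Shmt2 (-0.48 ± 0.10), which are known Atf4 targets, fell.

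Protein breakdown showed one marked subgroup. Of 37 proteasome subunits 17 were higher and none lower, and the subunits of the immunoproteasome, the form that interferon induces, led them. Psmb10 stood at 52.4, 45.8 and 59.4 CPM in the CLP libraries and 16.3, 17.8 and 17.9 CPM in the sham libraries, and Psmb8 (1.33 ± 0.16), Psmb9 (0.95 ± 0.15) and the activator Psme2 (0.89 ± 0.10) were also higher. With library totals alone 5 were higher, and leaving out 1 library gave 10 without CLP replicate 1, CLP replicate 3 or sham replicate 1 and 8 without sham replicate 3. Of 19 genes of MHC and antigen presentation 13 were higher and none lower, with a median of 0.80, Tapbp (1.49 ± 0.10) and Tap2 (1.10 ± 0.09), both of the machinery that loads peptides, having the lowest p. Of the 2 most abundant members H2-K1 was higher (0.57 ± 0.12) and B2m was not called (0.23 ± 0.12).

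Of 31 chaperone and unfolded protein response genes of the endoplasmic reticulum 2 were higher, 2 lower and 27 not called, and the median was 0.16 (-0.03 with library totals alone). These small counts moved with the libraries used: 5 were higher without CLP replicate 1, and 4 lower without CLP replicate 2. Xbp1 (0.72 ± 0.14) and the kinase Eif2ak3 (0.49 ± 0.11) were higher, whereas Ern1, the kinase that splices Xbp1, was at 33.4, 27.0 and 26.5 CPM in the CLP libraries and 71.6, 47.0 and 88.7 CPM in the sham libraries. Eif2ak3 was not called with library totals alone (0.30, edgeR, Benjamini-Hochberg adjusted p = 0.0568). Ero1lb was the fourth call (-0.44), lost without CLP replicate 1 or 3 or sham replicate 2 or 3 (edgeR, Benjamini-Hochberg adjusted p = 0.0646 to 0.0752). Hspa5, the main chaperone, overlapped between groups (0.55 ± 0.30, not called). Cytosolic heat shock genes split: Hsp90aa1 (1.02 ± 0.20) and the co-chaperone Bag3 (1.004 ± 0.15) were the 2 of 21 higher. Dnajb4 (-1.23 ± 0.21), Dnaja1 (-0.94 ± 0.18), Hsph1 (-0.79), Chordc1 (-0.54) and Hspa1b (-1.08) were lower, 23.8% of the list beside 21.0% of all genes tested. The calls of Hsph1, Chordc1 and Hspa1b were lost without sham replicate 2 or 3, among others (edgeR, Benjamini-Hochberg adjusted p = 0.0568 to 0.132). The count of lower members was 3 without CLP replicate 1 and 2 without sham replicate 2 or 3.

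Antioxidant genes gave a mixed result. Of 25 NRF2 and glutathione genes 7 (28%) were higher and 3 (12%) lower, beside 21.4% and 21.0% of all genes tested. Hmox1, which breaks down heme, was at 183, 224 and 147 CPM in the CLP libraries and 39.4, 23.5 and 22.5 CPM in the sham libraries, and the manganese superoxide dismutase Sod2 at 822, 823 and 718 CPM in the CLP libraries and 206, 259 and 160.1 CPM in the sham libraries. The small Maf factor Maff (3.17 ± 0.31), glutathione reductase Gsr (1.25 ± 0.11), thioredoxin reductase Txnrd1 (0.83 ± 0.13), the cystine carrier Slc7a11 and Gclc (0.96 ± 0.24) were also higher. Gclc was not called with library totals alone (0.75, edgeR, Benjamini-Hochberg adjusted p = 0.0527). Gclm, the partner of Gclc in glutathione synthesis (-0.48, not called without CLP replicate 1 or 3 or sham replicate 1 or 3, adjusted p = 0.0549 to 0.0681), Osgin1 (-0.78, not called without CLP replicate 1 or 3 or sham replicate 1 or 3, adjusted p = 0.0756 to 0.101) and Prdx6 (-0.39, not called without CLP replicate 1, 2 or 3 or sham replicate 2 or 3, adjusted p = 0.0530 to 0.157) were lower by edgeR with Benjamini-Hochberg adjustment. No member was called lower without CLP replicate 1, CLP replicate 3 or sham replicate 3, and 1 without sham replicate 1. Of 17 hypoxia-inducible genes 5 (29.4%) were higher and none lower, beside 21.4% and 21.0% of all genes tested. Hif1a itself was at 203, 159 and 150.2 CPM in the CLP libraries and 33.3, 46.6 and 34.8 CPM in the sham libraries. Adm (2.37 ± 0.34), Ndrg1 (1.42 ± 0.17) and Arnt (0.46 ± 0.09) were also higher. The last was Kdm3a (0.98), which was lost without sham replicate 1 or 2 (edgeR, Benjamini-Hochberg adjusted p = 0.0520 to 0.0535).

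Metal genes changed in both directions and often. Of 31 genes of zinc, iron and copper handling 14 (45.2%) were higher and 7 (22.6%) lower, beside 21.4% and 21.0% of all genes tested. The zinc importer Slc39a14 stood at 2733, 2559 and 2587 CPM in the CLP libraries and 1097, 1149.8 and 997 CPM in the sham libraries. The iron importer Slc11a2 (1.91 ± 0.15), metallothioneins Mt2 (1.04 ± 0.15) and Mt1 (0.69 ± 0.15), the ferritin heavy chain Fth1 (0.88 ± 0.12) and the iron hormone Hamp (0.56 ± 0.14) were higher. Hamp was not called without sham replicate 3 (edgeR, Benjamini-Hochberg adjusted p = 0.0524). Its upstream co-receptor hemojuvelin, Hfe2, was at 8.76, 2.80 and 7.79 CPM in the CLP libraries and 30.1, 35.5 and 32.8 CPM in the sham libraries, and the ligand Bmp2 (-1.37 ± 0.23), the copper pump Atp7b (-1.12 ± 0.13) and the iron exporter Slc40a1 were lower.

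Hormone and growth signals were called about as often as all genes tested, of which 21.4% were higher and 21.0% lower. In the growth hormone and IGF list 6 of 23 were higher and 2 lower, with a median of 0.08 that turned to -0.12 with library totals alone and -0.01 with upper-quartile scaling. Igfbp1, an IGF-binding protein of stress and fasting, stood at 1807, 2129.8 and 2117 CPM in the CLP libraries and 67.8, 140.0 and 189.6 CPM in the sham libraries. The CLP libraries lay far above the sham libraries. Socs2 (2.54 ± 0.43), the insulin receptor substrate Irs2 (2.02 ± 0.18), Jak2 (1.47 ± 0.12) and Egfr (0.71 ± 0.16) were higher, as was Igfbp7 (0.33, not called without CLP replicate 1 or 3 or sham replicate 2 or 3, adjusted p = 0.0549 to 0.113 by edgeR with Benjamini-Hochberg adjustment). The transcription factor Onecut1 fell (-1.66 ± 0.39), and Igfbp4 was the other lower member (-0.42, not called without CLP replicate 1 or 2 or sham replicate 1, 2 or 3, adjusted p = 0.0660 to 0.137), whereas Igf1 overlapped between groups (-0.10 ± 0.15, not called). The 2 lower members are a smaller share than that of all genes. Among 29 receptors of hepatocytes 6 were higher and 7 lower, again near the share over all genes. Il1r1, the interleukin-1 receptor, stood at 1512, 1252 and 1330.0 CPM in the CLP libraries and 427, 471 and 275 CPM in the sham libraries and the leptin receptor gene Lepr at 57.9, 137 and 81.9 CPM in the CLP libraries and 32.4, 13.4 and 16.9 CPM in the sham libraries, and the interferon gamma receptor chain Ifngr2 rose (0.93 ± 0.12). The angiotensin receptor Agtr1a (-1.32 ± 0.13) and Fgfr3 (-1.27 ± 0.14) fell. Erbb3 was at 29.97, 56.4 and 53.4 CPM in the CLP libraries and 232, 177 and 181 CPM in the sham libraries, and Met, the receptor for hepatocyte growth factor, fell by 1.34 on the log2 scale. Klb, the co-receptor for fibroblast growth factor 21, fell from 12.003 ± 5.35 to 2.48 ± 1.64 CPM (SD, n = 3 each).

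Of 30 secreted signals 7 were higher (23.3%, beside 21.4% of all genes tested) and 9 lower, and the activin genes went apart. Activins are dimers of inhibin beta chains, and follistatin, Fst, traps them. Inhba stood at 1.54, 0.641 and 0.923 CPM in the CLP libraries and 8.14, 11.99 and 29.0 CPM in the sham libraries, with sham replicate 3 the highest; without it the fall went from -3.97 to -3.26. Inhbb was at 56.3, 53.6 and 50.8 CPM in the CLP libraries and 6.47, 10.3 and 5.20 CPM in the sham libraries, the reverse order, and Fst at 70.8, 116 and 40.3 CPM in the CLP libraries and 5.30, 2.89 and 2.51 CPM in the sham libraries. The stress hormone Gdf15 was higher (3.56 ± 0.43), as were the angiotensin precursor Agt (1.98 ± 0.22) and Tsku (1.58 ± 0.21). Fgf21, the fasting hormone, was at 3.46, 0.481 and 1.85 CPM in the CLP libraries and 8.06, 6.51 and 6.58 CPM in the sham libraries; its fall of 1.85 on the log2 scale was not called without CLP replicate 3 or sham replicate 1 (edgeR, Benjamini-Hochberg adjusted p = 0.0559 to 0.0572) and went to -2.66 without CLP replicate 1. In the retinoid list the 2 retinoic acid hydroxylases parted: Cyp26b1 was at 0.307, 0.481 and 0.410 CPM in the CLP libraries and 5.23, 13.8 and 8.79 CPM in the sham libraries, and Cyp26a1 at 1.23, 1.68 and 2.36 CPM in the CLP libraries and 0.508, 0.888 and 0.478 CPM in the sham libraries. The rise of Cyp26a1 was lost without CLP replicate 3 or sham replicate 1 or 3 (adjusted p = 0.0517 to 0.0649 by edgeR with Benjamini-Hochberg adjustment).

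Hepatocytes at the central vein keep their identity through Wnt signals that the neighbouring endothelium releases, chiefly Wnt2 and Wnt9b. Both ligands were low and fell further: Wnt2 was at 0.461, 0.321 and 0.205 CPM in the CLP libraries and 2.32, 3.85 and 4.42 CPM in the sham libraries, and Wnt9b at 0.538, 0.240 and 0.718 CPM in the CLP libraries and 1.23, 2.66 and 1.43 CPM in the sham libraries. Several Wnt feedback genes and targets in the pericentral list also fell, though 16 of the 23 genes tested in that list were not called. Axin2 stood at 1.15, 1.36 and 1.54 CPM in the CLP libraries and 7.55, 7.11 and 5.44 CPM in the sham libraries. The receptor Lgr5 was at 0.922, 0.561 and 0.718 CPM in the CLP libraries and 6.61, 3.26 and 5.98 CPM in the sham libraries, and the ubiquitin ligase Rnf43 at 2.23, 1.68 and 2.46 CPM in the CLP libraries and 16.1, 11.2 and 14.2 CPM in the sham libraries. For these 3 genes every CLP library lay below every sham library. Tbx3 (-2.35 ± 0.18) and Nkd1 (-1.10 ± 0.24) behaved likewise, with an edgeR, Benjamini-Hochberg adjusted p of at most 0.00685 over the 5.

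The abundant enzymes of the central zone did not move as one with them. Of 23 pericentral genes 7 were lower and none higher, and the median was -0.20. Cyp2e1 was lower, Slc1a2 slightly so (-0.47; not called without sham replicate 2 or 3, edgeR, Benjamini-Hochberg adjusted p = 0.0623 to 0.0646), and Glul, the glutamine synthetase of the innermost cells, was at 2109, 841 and 2209 CPM in the CLP libraries and 773, 1129 and 1083 CPM in the sham libraries. Glul was about 2-fold higher than sham in CLP replicates 1 and 3 but not in CLP replicate 2, and it was not called (0.79 ± 0.36, adjusted p = 0.116 by edgeR with Benjamini-Hochberg adjustment); it was called without CLP replicate 2 (1.12, adjusted p = 0.00181) and by DESeq2 (0.0349). Of 23 periportal genes 5 (21.7%) were higher and 9 (39.1%) lower, with a median of -0.26. The share higher was near the 21.4% of all genes tested, of which 21.0% were lower. The higher ones were the adhesion gene Cdh1 (0.73 ± 0.16) and 4 named above, Sds, Sdsl, Gldc and Fbp1; 3 were higher without CLP replicate 1 or sham replicate 3.

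Markers of the sinusoidal endothelium fell widely. Of 21 tested 16 were lower and 3 higher, with a median of -0.95, and the summed level of the list went from 679 to 791 CPM in the sham libraries to 597 to 619 CPM in the CLP libraries. Kdr, the main receptor for vascular endothelial growth factor, was at 2.61, 5.77 and 7.18 CPM in the CLP libraries and 39.7, 43.2 and 54.2 CPM in the sham libraries, and Ehd3, a membrane trafficking gene, at 9.76, 11.3 and 16.1 CPM in the CLP libraries and 36.6, 44.6 and 48.6 CPM in the sham libraries. Tek, the angiopoietin receptor, fell by 1.97 on the log2 scale. The general endothelial cadherin Cdh5 stood at 109.9, 101 and 85.7 CPM in the CLP libraries and 33.1, 34.9 and 28.7 CPM in the sham libraries, the opposite of Kdr, and the hyaluronan receptor Lyve1 rose as well (1.71 ± 0.25), as did Plpp1 (0.65), which was not called without sham replicate 3 (edgeR, Benjamini-Hochberg adjusted p = 0.0527). Pecam1, another general endothelial gene, was not called (-0.37 ± 0.21), but it was lower without CLP replicate 2 (-0.66, edgeR, Benjamini-Hochberg adjusted p = 0.00581) and with library totals alone (-0.57).

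Among 19 Kupffer cell markers 4 (21.1%) were higher and 9 (47.4%) lower, beside 21.4% and 21.0% of all genes tested. The list sum stayed close, from 898 to 1040.4 CPM after sham surgery and from 996 to 1064 CPM after CLP. The haptoglobin-hemoglobin receptor Cd163 was at 10.4, 9.06 and 10.8 CPM in the CLP libraries and 54.8, 46.0 and 43.9 CPM in the sham libraries, and the complement receptor Vsig4 (-1.27 ± 0.18), Csf1r (-0.72 ± 0.13) and Clec4f (-0.64 ± 0.12) also fell. Marco, a scavenger receptor for bacteria, was at 71.9, 125 and 84.5 CPM in the CLP libraries and 19.8, 19.3 and 7.95 CPM in the sham libraries, and Spic, the factor of red pulp and heme-handling macrophages, rose (2.72 ± 0.25). Hmox1 and Cdh5, which other cells of the liver express as well, were the other 2 higher markers.

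**Figure D4:**
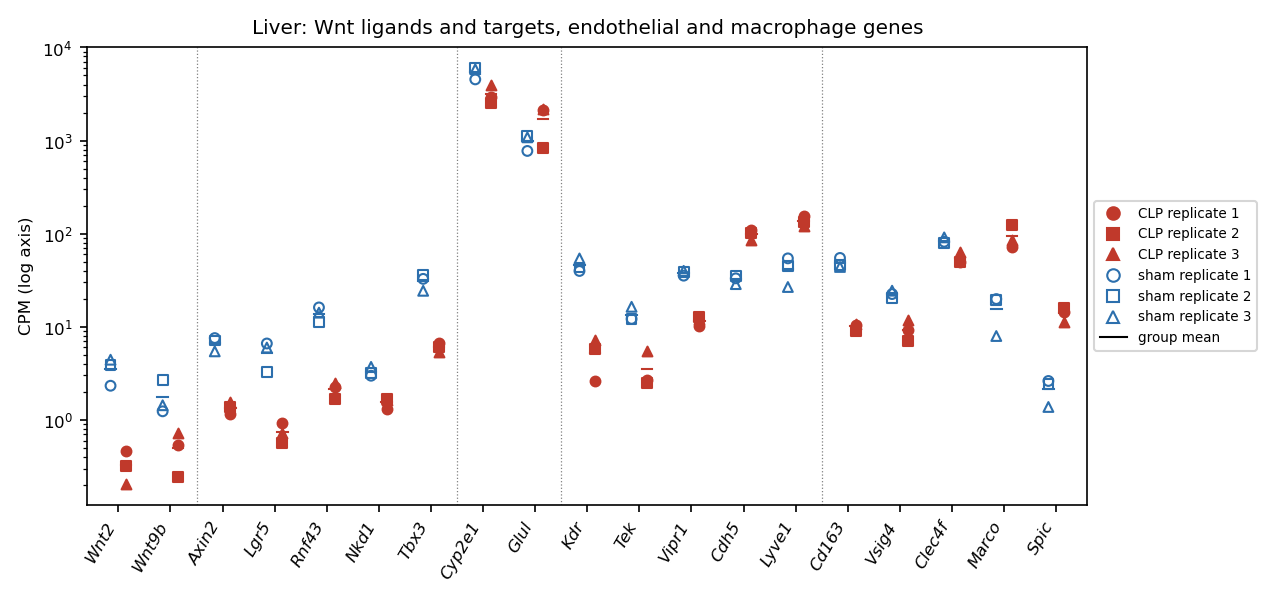
CPM (log axis) of Wnt ligands, Wnt feedback and target genes of the central zone, 2 abundant central zone genes, endothelial genes with the stellate list gene Vipr1, and Kupffer cell genes in each CLP (filled) and sham (open) library, with bars for the group means. Wnt2, Axin2, Lgr5, Rnf43 and Kdr lie lower in all 3 CLP libraries, and Cdh5, Lyve1, Marco and Spic lie higher.

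In the stellate cell list 5 of 20 markers (25%) were higher and 3 (15%) lower, beside 21.4% and 21.0% of all genes tested. Timp1, an inhibitor of matrix proteases, rose from 0.479 ± 0.341 to 11.3 ± 4.63 CPM (SD, n = 3 each), and its log2 fold change of 4.60 became 5.21 without sham replicate 1. Vipr1, a receptor for vasoactive intestinal peptide, was at 10.1, 12.7 and 11.998 CPM in the CLP libraries and 35.4, 38.7 and 39.9 CPM in the sham libraries. Ngfr rose (1.80 ± 0.27) and Colec11 fell (-0.72 ± 0.16). The other calls, by edgeR with Benjamini-Hochberg adjustment, were weaker: Rgs5 (0.59, not called without sham replicate 1, 2 or 3, adjusted p = 0.0576 to 0.0615), Tagln (1.32, not called without CLP replicate 1 or sham replicate 1 or 2, adjusted p = 0.0625 to 0.0835), Lox (1.30, not called without sham replicate 3, adjusted p = 0.0649) and Col1a2 (-0.61, not called without CLP replicate 2 or sham replicate 1 or 3, adjusted p = 0.0538 to 0.0735). Without any 1 of the sham libraries 3 members were higher. Of 7 bile duct markers tested 5 were higher. Sox9, a duct and progenitor factor, was at 42.9, 22.8 and 33.9 CPM in the CLP libraries and 4.07, 5.03 and 2.87 CPM in the sham libraries, and Sorbs2 rose (0.98 ± 0.22). The other higher markers, by edgeR with Benjamini-Hochberg adjustment, were Spp1 (0.84, not called without sham replicate 1, 2 or 3, adjusted p = 0.0742 to 0.140), Epcam (0.92, not called without CLP replicate 1 or 2 or sham replicate 2 or 3, adjusted p = 0.0526 to 0.0741) and Cd24a (1.48, not called without CLP replicate 1 or 2 or sham replicate 1, 2 or 3, adjusted p = 0.0505 to 0.111). The count of higher bile duct markers was 3 without CLP replicate 1, CLP replicate 2 or sham replicate 1, and 2 without sham replicate 2 or 3.

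Blood cell markers moved too. Of 17 neutrophil markers 16 were higher, with list sums of 1347 to 2949 CPM after sham surgery and 6651 to 7431 CPM after CLP, most of it from Lcn2, which hepatocytes also make. G0s2, a lipase inhibitor that hepatocytes also express, was the lower one, at 1.23, 1.92 and 2.67 CPM in the CLP libraries and 18.8, 72.2 and 57.5 CPM in the sham libraries. S100a9, abundant in neutrophils, was at 97.9, 98.7 and 68.5 CPM in the CLP libraries and 5.01, 6.00 and 5.92 CPM in the sham libraries, and its partner S100a8 at 53.6, 60.7 and 44.3 CPM in the CLP libraries and 3.92, 4.81 and 3.17 CPM in the sham libraries. Of 12 monocyte markers 9 were higher and none lower, with sums of 59.8 to 63.3 and 120.2 to 129 CPM; Chil3 rose by 4.63 ± 0.41 and Plac8 by 1.67 ± 0.14. Few lymphoid or other blood cell markers passed the filter. Gzmb, a granule enzyme of killer cells, was higher (2.75 ± 0.38) and Bank1, a B cell adaptor, lower (-1.97 ± 0.37), both under 3 CPM on average. Of 6 dendritic cell markers tested 2 (33.3%) were higher, Irf8 (1.13 ± 0.19) among them, and 1 (16.7%) lower. Over all genes tested 21.4% were higher and 21.0% lower. Leaving out CLP replicate 2 or 3 or sham replicate 1 or 3 gave 1 higher, and without sham replicate 3 none was lower. Of 4 platelet markers tested 2 (50%) were higher, Itgb3 (1.21 ± 0.23) among them, and Clec1b (25%) was lower (-0.92 ± 0.21). Without CLP replicate 1 the higher platelet count was 1. None of 6 tested red blood cell genes was called (list sums of 135.5 to 209.6 CPM after sham surgery and 164 to 206 CPM after CLP), though 2 were called higher without sham replicate 3. Their part in the changes of other lists was not tested.

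Transcripts of lung epithelium were found at low level in liver and were higher after CLP. Sftpc, a surfactant protein made in the lung, was at 6.92, 5.29 and 10.2 CPM in the CLP libraries and 1.82, 0.296 and 0.957 CPM in the sham libraries, which was 0.0462 to 0.0875% of its level in lung after CLP and 0.00224 to 0.0154% after sham surgery. Of 8 alveolar type 2 markers tested 7 were called higher. The sums of all 11 listed markers were 79.1 to 85.6 CPM after sham surgery and 108.6 to 118 CPM after CLP. These sums include the most abundant marker, which was the one not called (-0.12). Other surfactant genes gave larger shares after CLP, up to 0.125% for Sftpb and 0.169% for Sftpa1 (1.72 ± 0.21), and Napsa was higher too (2.66 ± 0.32). If the largest of these shares held for all lung RNA, it would reach at least 10% of the CLP liver level in 37 of the 2647 genes called higher, and at least 50% in 13. With the largest Sftpc share the counts were 20 and 9. Lox (54.7%), Cd24a (19.8%) and Chil3 (16.3%), of the stellate, bile duct and monocyte lists, were among the 37. Where these transcripts came from was not tested.

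Most early response genes rose. Of 29 immediate early and AP-1 genes 23 were higher and none lower, with a median of 1.59. Fosl1, an AP-1 subunit, was at 2.46, 2.00 and 1.44 CPM in the CLP libraries and at 0 in the 3 sham libraries, at least 29.5-fold higher when 3 counts are assumed over the sham group. Klf6 (2.10 ± 0.13), Gadd45b (3.15 ± 0.24), the abundant Zfp36l1 (1.27 ± 0.11), Junb (1.21 ± 0.17) and the nuclear receptor Nr4a1 (3.08 ± 0.37) were also higher. Cdkn1a, a cell cycle inhibitor, was at 250.5, 231 and 144 CPM in the CLP libraries and 19.5, 71.4 and 10.6 CPM in the sham libraries. Sham replicate 2 stood apart: without it the change went from 2.63 to 3.80, and without CLP replicate 1, CLP replicate 2 or sham replicate 1 it was not called (edgeR, Benjamini-Hochberg adjusted p = 0.0690 to 0.0912).

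Of 31 p53 targets and cell death regulators 22 were higher and 1 lower, with a median of 0.72. Both sides of the balance took part: Bcl2l1, which protects from apoptosis, stood at 123, 178 and 104 CPM in the CLP libraries and 20.8, 23.3 and 14.0 CPM in the sham libraries. Casp4, which senses intracellular lipopolysaccharide, stood at 15.4, 11.3 and 15.7 CPM in the CLP libraries and 1.89, 1.63 and 1.55 CPM in the sham libraries, and the death receptor Fas (1.84 ± 0.14) and the necroptosis genes Mlkl (2.05 ± 0.19) and Ripk3 (2.01 ± 0.28) rose. Xiap, a caspase inhibitor, was the one that fell (-0.45 ± 0.11). Of 26 antiviral RNA and nucleotide pool enzymes 16 were higher and 2 lower. Zc3h12a, which degrades inflammatory mRNAs, was at 95.5, 64.4 and 72.5 CPM in the CLP libraries and 8.72, 10.6 and 6.34 CPM in the sham libraries. The lower ones, by edgeR with Benjamini-Hochberg adjustment, were the pyrimidine enzymes Cda (-0.61, not called without CLP replicate 1 or 3 or sham replicate 1 or 2, adjusted p = 0.0537 to 0.0672) and Upb1 (-0.33, not called without CLP replicate 1 or 2 or sham replicate 1, 2 or 3, adjusted p = 0.0607 to 0.142). Among those of pyrimidines and purines, the kinase Uck2 was at 57.0, 47.7 and 48.6 CPM in the CLP libraries and 12.3, 12.4 and 13.5 CPM in the sham libraries, the phosphorylase Upp1 rose (3.22 ± 0.43), and xanthine dehydrogenase Xdh, which makes uric acid, was at 780.0, 860.2 and 919.9 CPM in the CLP libraries and 286, 312 and 226 CPM in the sham libraries. Of 24 cell cycle and replication genes 5 were higher, near the share of 21.4% over all genes tested. They were the repressor E2f8 (1.32 ± 0.21), the replication helicase subunits Mcm3 (0.97 ± 0.24) and Mcm4 (0.87 ± 0.18), the kinase Plk3 (0.81 ± 0.17) and the cyclin Ccnd2 (0.79 ± 0.17). Mcm2 was the one lower member (-0.93; edgeR, Benjamini-Hochberg adjusted p = 0.0507 without sham replicate 1).

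The coagulation, complement and autophagy lists had shares called near those over all genes tested, 21.4% higher and 21.0% lower. Of 35 coagulation and fibrinolysis genes 8 were higher and 7 lower. The anticoagulant thrombomodulin, Thbd, was at 102, 60.7 and 76.0 CPM in the CLP libraries and 3.92, 14.8 and 8.01 CPM in the sham libraries. Procr, the protein C receptor, was at 18.1, 9.70 and 11.4 CPM in the CLP libraries and 0.145, 0.814 and 0.359 CPM in the sham libraries, and its log2 fold change of 4.89 became 5.60 without sham replicate 2; the urokinase receptor Plaur (4.24 ± 0.37) rose, while the histidine-rich glycoprotein Hrg (-0.71 ± 0.13) and protein Z, Proz (-0.72 ± 0.14), fell. Of 32 complement genes 5 were higher and 6 lower (3 without sham replicate 3). Cfb, a factor of the alternative pathway (1.11 ± 0.12), the receptor C5ar1 (1.65 ± 0.21), the protease C1ra (0.48 ± 0.11) and Cr1l (0.61 ± 0.13) were higher, as was Serping1 (0.33, not called without CLP replicate 1, 2 or 3 or sham replicate 1, 2 or 3, adjusted p = 0.0642 to 0.125 by edgeR with Benjamini-Hochberg adjustment). Cd59a, which blocks the membrane attack complex, was among the lower ones (-0.87 ± 0.14).

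Of 39 autophagy and lysosome genes 8 were higher and 7 lower, and 2 related factors of lysosome genes parted. Tfe3 stood at 95.8, 85.0 and 75.1 CPM in the CLP libraries and 37.2, 34.8 and 30.4 CPM in the sham libraries, and Tfeb at 1.92, 1.84 and 1.54 CPM in the CLP libraries and 6.25, 3.63 and 5.02 CPM in the sham libraries. The lysosomal cholesterol exporter Npc1 was at 47.6, 33.3 and 52.2 CPM in the CLP libraries and 126, 124 and 147 CPM in the sham libraries, and the kinase Tbk1 rose (0.99 ± 0.11). In one-carbon and methyl metabolism 3 of 27 (11.1%) were higher and 6 (22.2%) lower, beside 21.4% and 21.0% of all genes tested. Mthfd2, a mitochondrial folate enzyme (1.83 ± 0.36), and the choline carrier Slc44a1 (1.42 ± 0.14) rose with Chka (1.24, not called without CLP replicate 1 or 2 or sham replicate 1, 2 or 3, adjusted p = 0.0624 to 0.0968 by edgeR with Benjamini-Hochberg adjustment), while choline dehydrogenase Chdh (-1.11 ± 0.13), the folate enzyme Mthfd1 (-0.86 ± 0.13) and Gatm, which starts creatine synthesis (-1.50 ± 0.30), fell. Of 33 solute carriers of hepatocytes 8 (24.2%) were higher and 12 (36.4%) lower. Slc16a1, a carrier of lactate and ketone bodies, was at 283, 204 and 169.9 CPM in the CLP libraries and 37.8, 57.1 and 53.7 CPM in the sham libraries. Slc17a2 rose (1.40 ± 0.11), and the glycerol channel Aqp9 (-1.96 ± 0.20) and the vitamin carrier Slc5a6 (-1.80 ± 0.16) fell. Of 51 secretory pathway genes 9 (17.6%) were higher and 4 (7.84%) lower. The higher count was 1 without sham replicate 1 or 3 and 5 without CLP replicate 2 or 3. Kdelr2, which returns chaperones to the endoplasmic reticulum, was higher (0.64 ± 0.13), as was Srp9 (0.40, not called without sham replicate 1 or 3, adjusted p = 0.0511 to 0.0656 by edgeR with Benjamini-Hochberg adjustment), and the collagen export gene Mia3 lower (-0.46 ± 0.11). The other lower members, by edgeR with Benjamini-Hochberg adjustment, were the transport genes Sec23a (-0.51, not called without sham replicate 2 or 3, adjusted p = 0.0504 to 0.0507), Mia2 (-0.47, not called without CLP replicate 1 or sham replicate 3, adjusted p = 0.0504 to 0.0579) and Bet1 (-0.36, not called without CLP replicate 3 or sham replicate 2 or 3, adjusted p = 0.0535 to 0.0653).

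The CLP libraries differed among themselves in some of these genes. The first principal component, with 78.9% of the variance of log2 CPM, parted CLP from sham, and the second, with 8.49%, set CLP replicate 2 (-27.6) apart from CLP replicates 1 and 3 (14.2 and 13.4). In 115 of 8864 genes with a group mean of at least 5 CPM, CLP replicate 2 lay at least 2-fold below both other CLP libraries, against 24 and 16 genes for CLP replicates 1 and 3. Interferon-stimulated genes were among them. Ifit1 was at 398, 98.6 and 554 CPM in the CLP libraries and 8.64, 6.44 and 20.5 CPM in the sham libraries, and Rsad2 at 337, 94.6 and 473 CPM in the CLP libraries and 8.43, 7.40 and 18.9 CPM in the sham libraries. Both, chosen after their values were seen, stood above all sham libraries in CLP replicate 2 too. Without CLP replicate 2, 2557 genes were higher and 2499 lower.

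**Figure D5:**
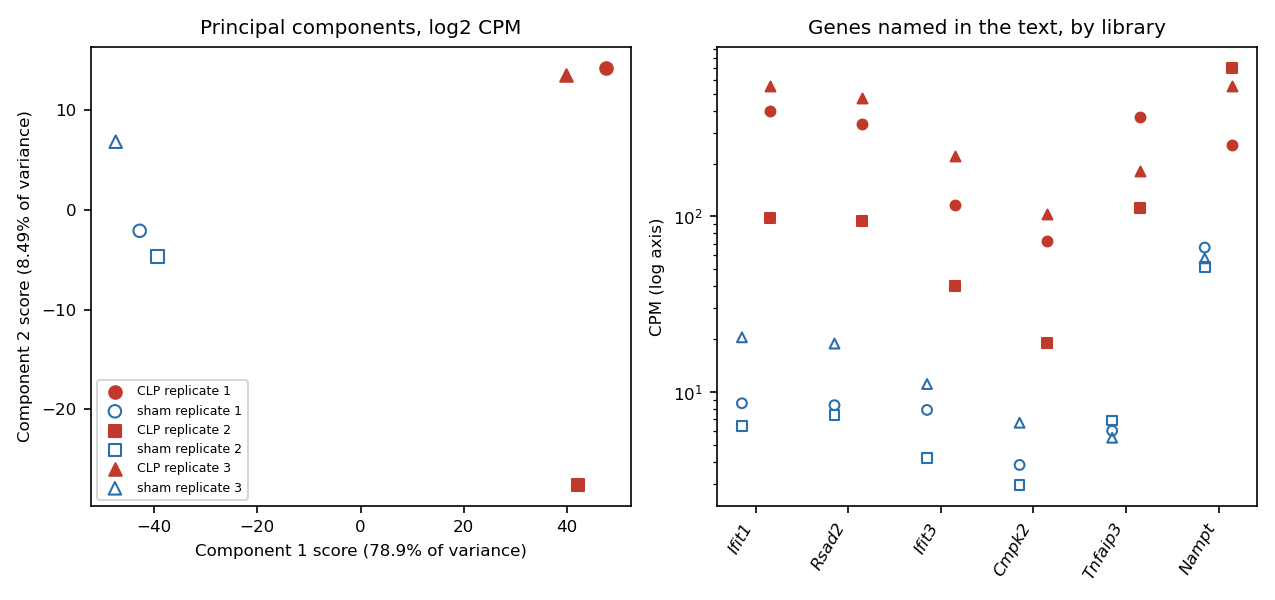
Left, scores of the 6 liver libraries on the first 2 principal components of log2 CPM; right, CPM (log axis) of 6 genes in each CLP (filled) and sham (open) library. CLP replicate 2 lies apart on the second component and is lowest of the CLP libraries for Ifit1, Rsad2, Ifit3, Cmpk2 and Tnfaip3 and highest for Nampt.

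The liver change was set against the change in lung, in 1 edgeR model of all 12 libraries, for the 5 largest rises and 5 largest falls given above. These 10 were picked for large changes in the same liver libraries, which favours a larger change in liver. Over all 16111 genes of that model 17.7% differed between the organs. The rise was larger in liver for Serpina3f (by 2.82 ± 0.45 on the log2 scale, SE), Akap12 (2.77 ± 0.57), Cxcl9 (3.10 ± 0.59) and Cd14 (2.19 ± 0.51), with Benjamini-Hochberg adjusted p of at most 0.0112. Hhex fell by 4.56 ± 0.24 more in liver than in lung, and Fam214a by 1.75 ± 0.38 more. In lung Hhex went from 13.4, 14.5 and 14.0 CPM after sham surgery to 13.7, 11.9 and 10.1 CPM after CLP. Akap12 started higher in lung, at 134, 112 and 127 CPM after sham surgery, and reached 1307, 1248 and 434 CPM after CLP. Its gain in CPM was thus larger in lung, though its log2 change was smaller. Cxcl9 was scarce in lung, at 0.711, 0.281 and 0.374 CPM after sham surgery and 2.55, 3.49 and 2.40 CPM after CLP. Il1rn (0.39 ± 0.60) and Hykk (-0.68 ± 0.29) did not pass the threshold for a difference (adjusted p = 0.728 and 0.130). Hykk did pass it without lung CLP replicate 2 (-0.92, edgeR, Benjamini-Hochberg adjusted p = 0.0339). Nr1i3 and Cyp2d37-ps were below 0.2 CPM in every lung library, so their difference rests on almost no lung counts.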

How the data were processed

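RNA was extracted from liver kept in RNAlater, and stranded TruSeq libraries were sequenced, per the labels' protocols. The deposited values are raw read counts per gene. STAR 2.7.10a, featureCounts, FastQC, DESeq2 and build mm39 are named in the submitters' processing notes. The annotation release, strand setting and treatment of multiply mapped reads were not given in the sources used here. Without a known strand setting, genes that overlap another gene on the opposite strand, among those named Fgg, Cp, Slc27a2, Apoa4, Gbp2, Nr1i3, Cpox, Stard5, Selp, Tiparp, Tmem25, Slc16a5, Abhd15, Arntl, Nr1d1, Rora, Dbp, Tef, Bhlhe41, Csnk1d, Car5a, Gls2, Glul, Pfkfb1, Pfkp, Hk3, Pfkm, Phka2, Bcat2, Sds, Irs2, Igfbp7, mt-Nd5, Atp5l, Gnl2, Mybbp1a, Wdr12, Polr1a, Shmt2, Atf5, Psmb8, Psmb9, Eif2ak3, Dnaja1, Gclm, Hif1a, Ndrg1, Mt2, Slc11a2, Fst, Tbx3, Axin2, Slc1a2, Plpp1, Csf1r, Lox, Tagln, Sorbs2, Fosl1, Cdkn1a, Junb, Uck2, Tapbp, Ccnd2, Plk3, E2f8, Npc1, Slc44a1, Chka, Sec23a, Yars, Aars, Tap2, Zfp36l1, Chdh, Mthfd1, Slc5a6, Fgfr3, Srp9, Napsa and mt-Co1, are uncertain.

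The liver counts were filtered (filterByExpr, minimum count 10, minimum total 15), scaled by TMM and tested with edgeR 4.0.16 (quasi-likelihood test, R 4.3.3) on the 6 liver libraries, CLP against sham, with Benjamini-Hochberg adjustment and a threshold of 0.05. The interaction with organ used all 12 libraries. On simulated counts (12030 genes) the test recovered 67.7% of genes changed by 1 and 98.0% of those changed by 2 on the log2 scale. Of its calls 10.4% were false, more than the threshold of 0.05 allows. Only 99 genes were changed by 1 and 98 by 2 there, all with a sham mean of at least 10 counts. In the data 42.3% of genes were called, so these shares may not hold for them or for scarcer genes. Alternatives were DESeq2 1.42.0, limma-voom (limma 3.58.1), other scalings and filters, all 12 libraries, a replicate block and leaving out each library. The members and the 56 gene lists (39 pathway, 17 cell type, 1475 entries) were chosen with earlier results of these data known. Named genes are the 10 largest rises and falls whose mean log2 CPM reaches 5 (no predicted genes, no antigen receptor segments), the 10 largest gains and losses in CPM, the 8 lowest p in each direction, and in each list the 2 lowest p in each direction, the 2 most abundant and the members behind small counts. Of the 253 members that the list rule selects, 179 are named and the others stand only in the counts. Other list members named were chosen after their values were seen, as were Ifit1, Rsad2 and Ifit3. Intervals cover counting error only. Results for some genes are not reported here.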

Additional observations from a re-analysis of the deposited data

Results flagged for a closer look

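The change after CLP differed between liver and lung, by the interaction test of edgeR over all 12 libraries with Benjamini-Hochberg adjustment, for 6 of the 10 genes compared. The 10 were picked for the largest liver changes in the same liver libraries, which favours a larger change in liver, so this count is no measure of how often the organs differ. Serpina3f rose by 2.82 ± 0.45 more in liver on the log2 scale (SE, adjusted p = 0.00138), where its lung change was 3.87. Akap12 rose by 2.77 ± 0.57 more (adjusted p = 0.00603; lung 3.02), Cxcl9 by 3.10 ± 0.59 more (adjusted p = 0.00338; lung 2.65) and Cd14 by 2.19 ± 0.51 more (adjusted p = 0.0112; lung 4.04). The liver minus lung difference was -4.56 ± 0.24 for Hhex (adjusted p = 6.76e-07; lung -0.20) and -1.75 ± 0.38 for Fam214a (adjusted p = 0.00847; lung -1.02). The cause was not tested.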

How the results depend on the processing

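Scaling by library totals alone moved the count of genes called higher from 2647 to 1690; the count of genes called lower was then 3793, and the median of all genes stood at -0.21 on the log2 scale. Every other alternative run kept the counts of genes higher, lower and at least 2-fold changed, and the count that differed between organs, within 1.5 times the reported value. Leaving out 1 library gave 1998 to 2557 genes higher, 1894 to 2499 lower, 1055 to 1186 higher at least 2-fold and 1065 to 1239 lower at least 2-fold. DESeq2 called 2503 higher and 2408 lower. Of the 314 named genes past the threshold, 244 kept their call in every alternative and none reversed. Library totals alone took away 24 of these calls, upper-quartile scaling 12 and the fit of all 12 libraries 11. Rises lost with library totals alone included those of Csnk1d, Fdps, Sdsl, Gldc, Cdo1, Cd38, Igfbp7, mt-Nd1, Atp5l, Eif2ak3, Gclc and Rgs5. Per1, not called, changed sign to -0.088 with library totals alone, -0.14 without CLP replicate 2 and -0.015 without sham replicate 1, in a range of -0.14 to 0.30 over the fits without 1 library; the cause was not tested. Of the others not called, Eprs went to -0.036 and mt-Co1 to -0.029 with library totals alone, and Aars ran from -0.028 (without CLP replicate 1) to 0.037 (without CLP replicate 2) over the fits without 1 library; the cause was not tested. A replicate block gave 2649 genes higher and 2596 lower. It called 7 members of the endoplasmic reticulum list higher in place of 2, Hspa5 among them (adjusted p = 0.0186), and called Arntl (0.00739) and Clock (0.0365). The labels do not say what a shared replicate number means, so the numbers were not taken as pairs. Same-numbered CLP and sham libraries correlated in their deviations by 0.06, 0.16 and 0.21. Libraries of different numbers were not compared in this way, so a pairing cannot be told from these values. With 3 libraries a group, changes near 2-fold can be missed at this depth.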
